A study of Mus musculus with 2 samples.

Results

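Of 2288 eligible 1 Mb windows on mouse chromosomes 1 to 19, 476 (20.8%) were nearly free of histone H3 dimethylated at lysine 79 (H3K79me2), and these mark-poor windows are described here. They were chosen by their read counts in replicate 2. A 1 kb bin was called when it held 12 or more distinct read starts, and a window was mark-poor when fewer than 5 of its 1000 bins (0.5%) were called. A window was eligible when at least 700 of its bins held reads in replicate 1, which removed 185 of 2473 windows. The number depends on the library: 808 windows qualified from replicate 1 alone (bins called at 20 reads), and 84 when replicate 2 also had to supply the reads that make a window eligible.

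The data are chromatin immunoprecipitation and sequencing of H3K79me2 in mouse embryonic fibroblasts, connective tissue cells grown from embryos, kept in DMEM medium with 10% FBS. The 2 libraries form 1 group, with the same antibody (Abcam AB3594) and 18 cycles of LM-PCR. They differ in flow cell, date and gel range, from 150 to 350 bp in replicate 1 and from 150 to 300 bp in replicate 2. Strain, genotype, embryo age and number of cultures are not given in the sources used here, so the spread between the libraries may be technical. Replicate 1 held 16472599 distinct read starts on the autosomes and replicate 2 held 12862946. The background, taken as the median of 10 kb bins that held reads, stood at 6.7 reads per kb in replicate 1 and at 3.3 in replicate 2. No input library was analysed here, so copy number and the ease of placing reads enter every count. No gene or marker could be placed, because the only gene coordinates at hand are those of GRCm38.p6, while the reads were placed on mm8. The cell type was therefore not checked against its markers, and windows are given by mm8 position without gene, exon or sequence.

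H3K79me2 is placed by DOT1L, a methyltransferase without the SET domain of most histone lysine methyltransferases. DOT1L acts with transcribing RNA polymerase II, and the mark covers the bodies of active genes, most densely in their first part. Long stretches without it are generally chromatin with few active genes in the cell type examined.

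Most mark-poor windows held no called bin at all. Of the 476, 271 had 0 called bins in replicate 2, 80 had 1, 59 had 2, 30 had 3 and 36 had 4. The rule has no natural gap at its threshold. The 36 windows with 4 called bins, just inside, had a median density of 2.05 reads per bin in replicate 2 and 6.71 in replicate 1. The 23 windows with 5 called bins, just outside, had 2.24 and 6.65. Density here and below is distinct read starts divided by the bins of the window that held reads in replicate 1. It is used for both libraries. Background counts every kb of a 10 kb bin, so density over background is raised where fewer bins held reads. The background is also a median with marked bins included, and not a level free of the mark.

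Mark-poor windows occurred on every autosome, in unequal shares. Chromosome 14 had the highest share, 33 of 109 eligible windows (30.3%), followed by chromosome 1 with 51 of 190 (26.8%) and chromosome 16 with 25 of 94 (26.6%). The lowest shares were on chromosome 13, with 13 of 106 (12.3%), and chromosome 11, with 15 of 119 (12.6%). These are counts of windows, and no test was made between chromosomes.

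**Figure D1:**
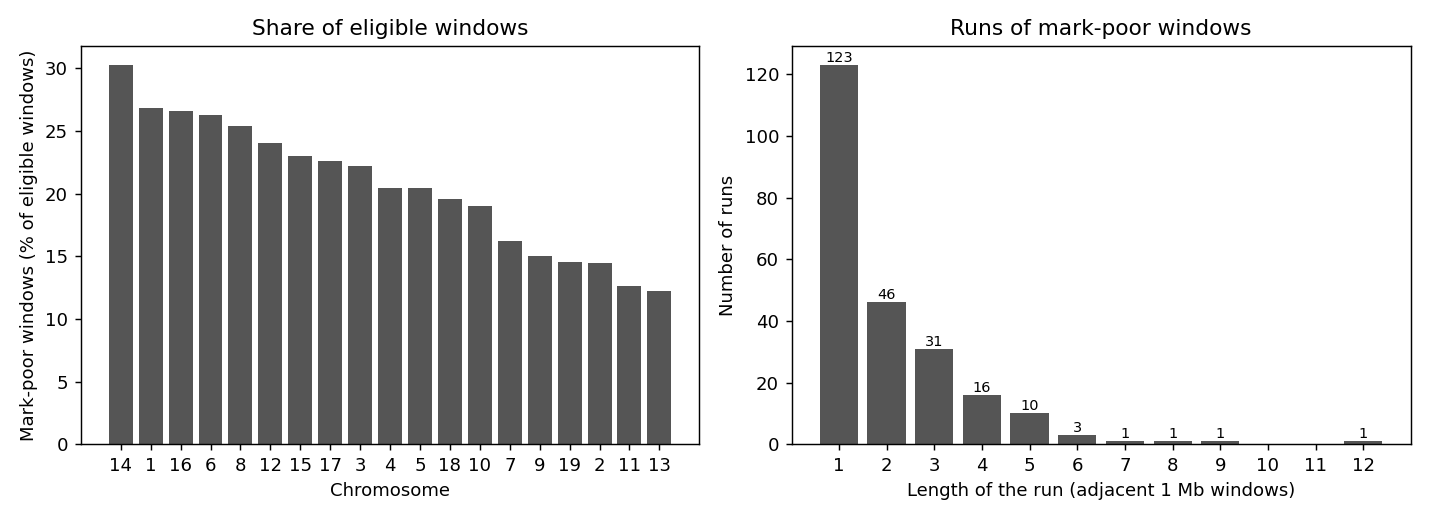
Left, mark-poor windows as a percentage of eligible 1 Mb windows on each autosome, in falling order from 30.3% on chromosome 14 to 12.3% on chromosome 13. Right, number of runs of adjacent mark-poor windows by run length in Mb, from 123 single windows to 1 run of 12.

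Mark-poor windows formed 233 runs, of which 123 were single windows, 46 were pairs, 31 were 3 windows long and 16 were 4 windows long. Runs of 2 or more held 353 of the 476 windows (74.2%), and the 17 runs of 5 or more held 104. The share in runs of 2 or more was 50.5% when 900 bins had to hold reads. It was 37.3% with the roles of the libraries exchanged and 14.3% from replicate 2 alone, settings that ask for reads of replicate 2 in 700 bins. Of the 931 eligible neighbours of mark-poor windows, 486 (52.2%) were mark-poor too. Among the 3481 eligible neighbours of the other windows, 445 (12.8%) were. The rule itself used the counts behind these shares, so they describe the layout and no test was made.

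The longest run covered 12 windows on chromosome 15, from 13000001 to 25000000. Run lengths depend on the settings: the longest was 7 windows with bins called at 8 reads or with under 0.2% of bins called, 5 when 900 bins had to hold reads, 4 with the roles exchanged and 2 from replicate 2 alone. The density of the run on chromosome 15 was 1.30 reads per bin in replicate 2 (0.907 to 1.85 over its windows), or 0.395 times background, and 6.61 in replicate 1 (5.85 to 7.81), or 0.986 times background. Both neighbours were strongly marked in replicate 2, with 193 called bins on the left and 303 on the right. The density of replicate 2 rose from 1.65 reads per bin in the last window of the run to 13.2 in the next, while that of replicate 1 rose from 6.41 to 10.3. In replicate 2 all 12 windows were thus below both neighbours, which the choice by replicate 2 favours. In replicate 1 the same held, since its highest window (7.81) stayed under the left neighbour (8.74).

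Chromosome 1 carried both the second and the fourth longest run. The run of 9 windows from 110000001 to 119000000 had 1.09 reads per bin in replicate 2 and 5.64 in replicate 1. It ended at 119000000 because the next window was not eligible, so that end marks no change in calls. The run of 7 windows from 100000001 to 107000000 had 1.12 and 5.33, with no called bin in replicate 2 and 1 in replicate 1. Its windows ranged from 5.01 to 5.49 in replicate 1, all below background. The runs were separated by 3 windows, an interval looked at after its values were seen. Those windows held 107, 221 and 5 called bins in replicate 2 and 22, 82 and 0 in replicate 1, so nearly all called bins between the runs lay in the first pair of windows in both libraries.

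On chromosome 14 the run of 8 windows from 105000001 to 113000000 had 1.30 reads per bin in replicate 2 and 6.72 in replicate 1. The window after the run held 6 called bins in replicate 2, just over the cut. In the run, replicate 1 stood at 1.003 times background, against 0.394 times in replicate 2. Reads of replicate 1 reached 90.25% of the bins of that run on average, so both values would be lower per kb of the whole run. A run of 6 windows on the same chromosome, from 79000001 to 85000000, had 1.14 in replicate 2 and 6.08 in replicate 1. Its windows had 3 called bins in replicate 2 and 2 in replicate 1, and a stretch of 7088 kb from 78505001 to 85593000 held no called region of replicate 2. A called region here is 2 or more called bins with gaps of up to 2 kb.

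Runs of 6 windows also lay on chromosome 8, from 99000001 to 105000000, and on chromosome 16, from 66000001 to 72000000. That on chromosome 8 had 1.20 reads per bin in replicate 2 and 5.94 in replicate 1, with no called bin in replicate 2 and a region-free stretch of 6801 kb. That on chromosome 16 was the densest of the 10 longest runs, at 1.53 in replicate 2 and 7.04 in replicate 1, which is 1.05 times background in replicate 1. Reads of replicate 1 reached 89.8% of its bins on average, so this value too would be lower per kb of the whole run. The 6 windows of the run on chromosome 16 held 8 called bins in replicate 2, none of them joined into a region.

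Of the 10 runs of length 5, the 3 with the lowest density in replicate 1 complete the 10 longest. Chromosome 2 from 85000001 to 90000000 had 0.829 reads per bin in replicate 2 and 4.88 in replicate 1, the lowest of the 10 in both libraries. Reads reached 82.7% of its bins on average in replicate 1, also the lowest share of the 10. Its neighbours were strongly marked, with 190 and 253 called bins. Chromosome 1 from 25000001 to 30000000 had 1.14 and 5.90 reads per bin in replicates 2 and 1, and chromosome 15 from 45000001 to 50000000 had 1.06 and 6.15.

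**Figure D2:**
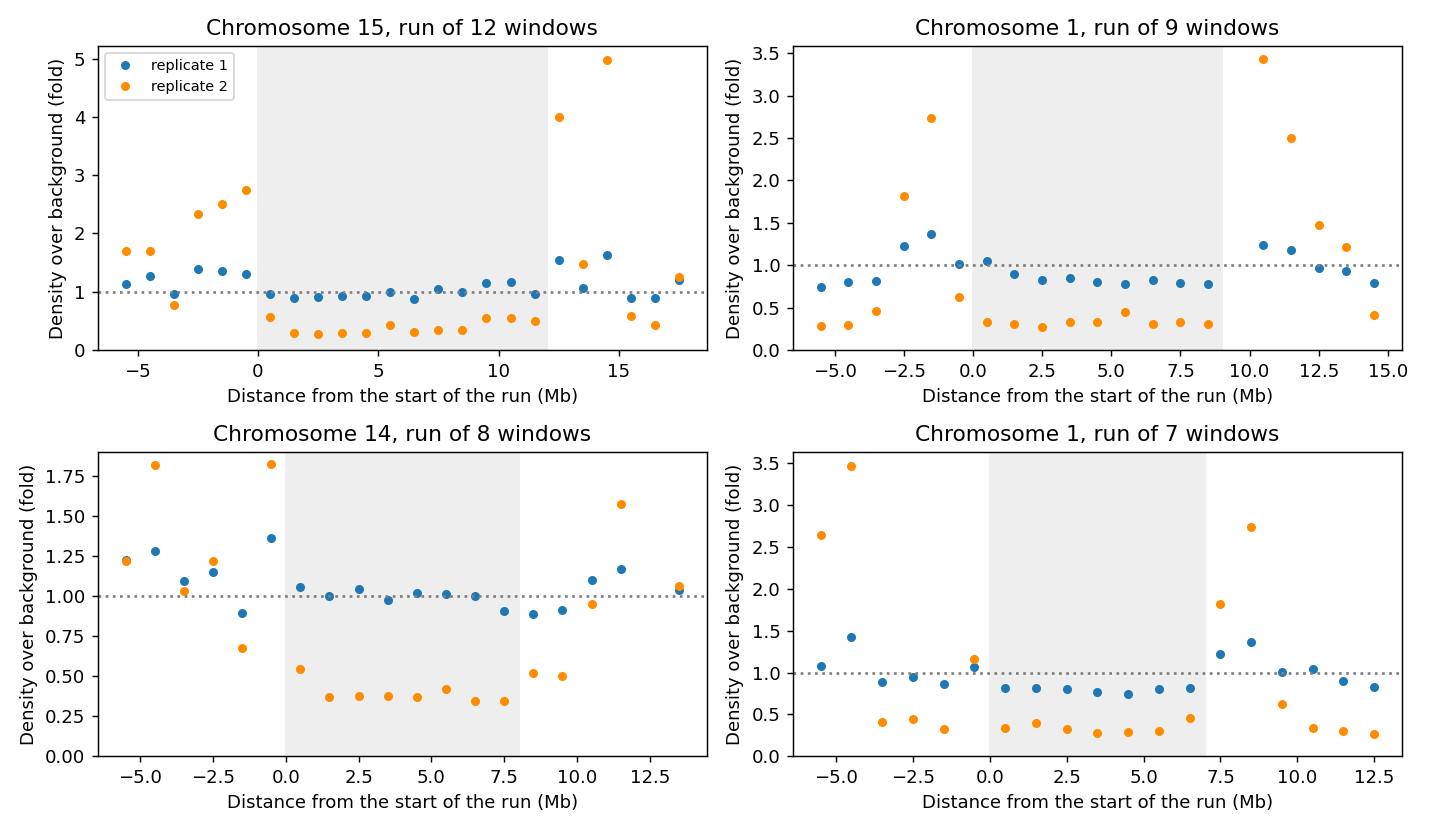
Read density of 1 Mb windows, as fold over the background of the same library, along the 4 longest runs and up to 6 eligible windows on each side, against distance in Mb from the start of the run. Grey marks the run, blue is replicate 1 and orange is replicate 2. On chromosome 15 the windows of the run lie at 0.275 to 0.562 in replicate 2 and 0.873 to 1.17 in replicate 1.

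Mark-poor windows were also poor in reads in replicate 1, which was not used to call them. Their density in replicate 1 had a lowest value of 3.20 reads per bin, a median of 6.10 and a highest of 8.46. The 1812 other eligible windows ran from 3.34 through a median of 7.98 to 19.5. The ranges overlap, but only 9 mark-poor windows lay above the median of the others. The ratio of medians was 0.764. In replicate 2, where the difference was fixed by the choice, mark-poor windows had 0.469, 1.38 and 3.31 reads per bin and the others 1.08, 6.32 and 26.3, a ratio of 0.218. The separation was therefore 1.31-fold in replicate 1 and 4.58-fold in replicate 2.

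Of the 476, 327 (68.7%) fell in the lowest 25% of eligible windows by density in replicate 1, below 6.58 reads per bin. Over all eligible windows this share is 25.0% by construction, and among the others it was 13.5%. Under background in replicate 1, by density over bins with reads, were 352 mark-poor windows (73.9%), against 27.9% of all eligible windows and 15.8% of the others. No bin was called in replicate 1 in 288 (60.5%), against 15.6% of all eligible windows and 3.86% of the others. Fewer than 5 bins were called in 465 (97.7%), against 35.3% of all eligible windows and 18.9% of the others. No test was made of these counts, because windows are not replicates of a condition.

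**Figure D3:**
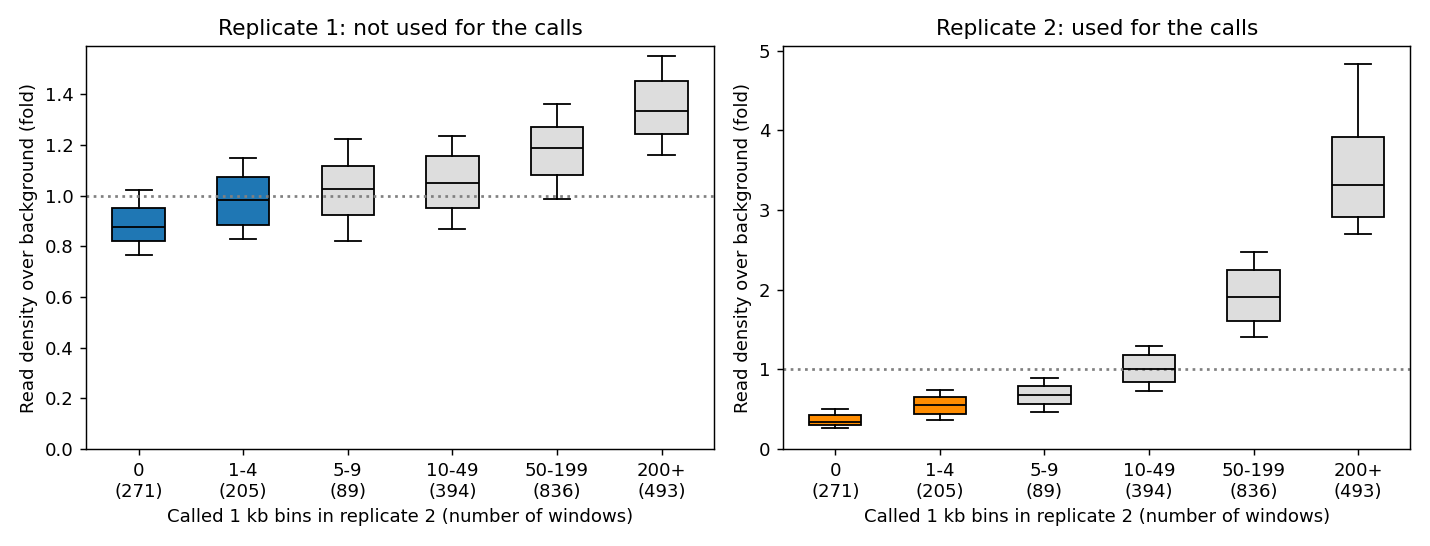
Read density of eligible windows as fold over background, by the number of 1 kb bins called in replicate 2, with the number of windows in each class in parentheses. Boxes show quartiles with the median and whiskers the 10th and 90th percentiles, and coloured boxes are mark-poor windows. In replicate 1 the median rises from 0.876 with 0 called bins to 0.983 with 1 to 4, and in both libraries the highest class has the highest median.

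Over classes of windows, the median density in replicate 1 rose with the number of bins called in replicate 2. The median was 5.87 reads per bin with 0 called bins and 6.59 with 1 to 4. Beyond the threshold it was 6.88 with 5 to 9 called bins, 7.03 with 10 to 49, 7.95 with 50 to 199 and 8.94 with 200 or more. Boxes of neighbouring classes overlap, so the gradient holds for medians of these classes and not for single windows. Windows with 3, 4, 5 and 6 called bins had medians of 6.82, 6.71, 6.65 and 6.69, without a rise. Coverage rose over the classes too, from a median of 87.7% of bins with reads in replicate 1 at 0 called bins to 97.7% at 200 or more. Its part in the gradient was not tested.

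Mark-poor windows had less sequence to which reads were assigned. In the median mark-poor window 88.8% of bins held reads in replicate 1, against 95.0% in the other windows. Within windows of similar coverage the density of replicate 1 was still lower in mark-poor windows, by less than over all windows in 4 of 5 classes of coverage. Among windows with 900 to 949 bins holding reads, 162 mark-poor windows had a median of 6.56 reads per bin in replicate 1 and 543 others had 7.87, a ratio of 0.833. For 850 to 899 bins the ratio was 0.840 (201 and 219 windows), for 800 to 849 it was 0.846 (65 and 75) and for 950 to 1000 it was 0.821 (26 and 919). For 700 to 799 bins it was 0.747 (22 and 56). Base composition was not measured here.

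The difference appeared on each autosome. The ratio of the median density of mark-poor windows to that of the others on the same chromosome ran from 0.721 on chromosome 7 to 0.862 on chromosome 12 in replicate 1. In replicate 2 it ran from 0.150 on chromosome 11 to 0.308 on chromosome 13. All 19 ratios were thus below 1 in replicate 1. They were below 1 in replicate 2 too, where the difference was fixed by the choice. The share in the lowest 25% of replicate 1 varied from 45.8% on chromosome 10 to 88.2% on chromosome 18.

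**Figure D4:**
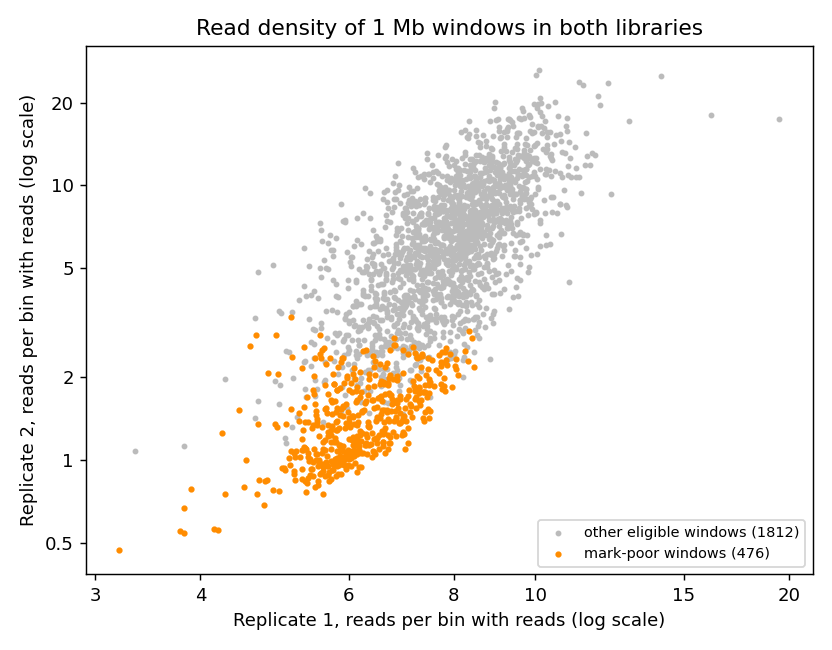
Density of each eligible 1 Mb window in replicate 1 against replicate 2, in reads per bin with reads, on log axes. Mark-poor windows (orange, 476) lie between 0.469 and 3.31 in replicate 2 and between 3.20 and 8.46 in replicate 1, at the lower left of the 1812 others (grey).

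Taken as shares, mark-poor windows made up 19.9% of the bins with reads in eligible windows. They held 16.2% of the reads of replicate 1 (95% interval 16.1 to 16.2), but of replicate 2 they held 4.98% (4.97 to 4.99). Scaled to these totals, reads of replicate 2 over those of replicate 1 were 0.283 at the median mark-poor window, with a range from 0.169 to 0.825. The ratio was below 1 in 476 of 476 mark-poor windows and in 859 of the others (47.4%). The rule chose low counts of replicate 2, so this ratio is a description.

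Mark-poor windows varied among themselves, more in replicate 2 than in replicate 1. The densest exceeded the sparsest 7.05 times in replicate 2 and 2.64 times in replicate 1. Across the 476 windows the densities of the libraries had a Pearson's r of 0.51 and a Spearman's rho of 0.54. The windows share their placeable sequence in both libraries. Spearman's rho of density with the number of bins holding reads was 0.53 in replicate 1 and 0.58 in replicate 2, so the correlation does not measure the mark alone.

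Longer runs were sparser in replicate 2, with no such order in replicate 1. Single windows had a median of 1.86 reads per bin in replicate 2, pairs 1.52, the edge windows of runs of 3 or more 1.37, and their interior windows 1.14. In replicate 1 the same classes had 6.01, 6.20, 6.14 and 6.08. The order seen in replicate 2 was therefore not seen in the medians of the library that did not choose the windows. The classes held 123, 92, 128 and 133 windows.

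The 3 sparsest mark-poor windows in replicate 1 were also short of placeable sequence. Chromosome 17 from 18000001 to 19000000 had 3.20 reads per bin in replicate 1 (95% Poisson interval 3.08 to 3.33) and 0.469 in replicate 2 (0.422 to 0.520). Chromosome 4 from 112000001 to 113000000 had 3.79 and 0.552, and chromosome 6 from 68000001 to 69000000 had 3.82 and 0.669. Reads of replicate 1 reached 73.2% to 78.6% of their bins. Distinct starts of reads with 2 placements stood at 1.71 to 1.98 per bin in replicate 1, above the median of 0.242 over mark-poor windows. No bin was called in either library.

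The 3 densest mark-poor windows in replicate 1 had reads of that library in 96.9%, 90.6% and 96.2% of their bins. All 3 shares were above the median of 88.8% over mark-poor windows. The 90.6%, on chromosome 13, was below the median of 95.0% over the other windows. Chromosome 7 from 91000001 to 92000000 had 8.46 reads per bin in replicate 1 (8.28 to 8.65), or 1.26 times background, and 2.18 in replicate 2 (2.09 to 2.28), or 0.661 times background. It held 5 called bins in replicate 1 and none in replicate 2. Chromosome 13 from 26000001 to 27000000 had 8.41 and 2.79, and chromosome 2 from 141000001 to 142000000 had 8.34 and 2.95. All 3 lay above the median of the other windows in replicate 1 and below background in replicate 2.

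In 11 mark-poor windows replicate 1 called 5 or more bins, and these were examined after their values were seen. The highest counts were 19 called bins on chromosome 5 from 80000001 to 81000000 and 15 on chromosome 13 from 27000001 to 28000000, where replicate 2 called 1 and 2. Both were near background in replicate 1, at 1.05 times, so their calls come from few bins. The window on chromosome 13 held 2.25 distinct starts of reads with 2 placements per bin in replicate 1 and that on chromosome 5 held 0.587. Their part in the calls was not tested.

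Inside mark-poor windows the variance of bin counts over their mean, which is 1 for counts that differ by chance alone, had a median of 1.74 in replicate 1 and 1.69 in replicate 2 over bins with reads in replicate 1. In the other windows it was 2.75 and 9.48. The largest bin of the median mark-poor window held 19 reads in replicate 1 and 11 in replicate 2, and that of the median other window 40 and 83. At the median, 35.7% of the bins that held reads in replicate 1 were empty in replicate 2, against 7.33% in the other windows. Calls and bin counts of replicate 2 were used by the rule, so its values are given as a description. Partly placeable bins and a higher mean density also raise this measure, so it does not compare evenness between libraries or groups of unlike density.

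The 432 called bins inside mark-poor windows were mostly weak and isolated. Their median count was 13 reads in replicate 2 and 295 (68.3%) held 12 to 14 reads, close to the threshold. Beside another called bin lay 71 (16.4%). The rule allows fewer than 5 called bins in a window, which favours weak and isolated ones. Both shares are therefore a description, and like shares for the called bins of other windows are not given here. Replicate 1 called 20 of the 432 as well (4.63%), against 0.0790% of all bins of mark-poor windows, 2.20% of all bins of eligible windows and 16.9% of the called bins in other windows. Of the 366 in windows with an eligible neighbour that is not mark-poor, 130 (35.5%) lay within 100 kb of that neighbour, as did 13.2% of all bins of those windows.

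The strongest of these bins in replicate 1 held many reads with 2 placements. On chromosome 6, 103614001 to 103615000 held 113 distinct starts in replicate 1 and 16 in replicate 2, with 48 and 17 starts of reads with 2 placements. On chromosome 12, 67978001 to 67979000 held 96 and 26, with 146 and 32. On chromosome 10, 112332001 to 112333000 held 36 and 65, with 5 and 17, and it lay beside another called bin. Over all 432 bins, 331 held no read with 2 placements in either library and 9 held 10 or more distinct starts in at least 1 library, 5 of which were among the 20 called in both libraries.

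Borders of runs were compared in replicate 1 with an exact two-sided binomial test of the reads in adjacent windows, given their bins with reads. The p-values were adjusted by Benjamini-Hochberg over 2089 adjacent eligible pairs, each oriented from the window with fewer called bins in replicate 2 to that with more. Another 117 of the 2206 adjacent pairs had equal numbers of called bins and were not tested. The test compares places within 1 library and covers counting error only, which at the depth of a 1 Mb window makes small differences pass. Of 466 run edges, 445 faced an eligible window. Replicate 1 was higher outside at 360 of these borders (80.9%; adjusted p below 0.01), against 70.9% of all tested pairs. It was lower outside at 32 (7.19%), against 10.8% of all tested pairs. The median ratio of density outside to inside was 1.20 at borders and 1.11 at the other 1644 pairs.

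Borders were more often higher outside than other pairs with a like difference in called bins of replicate 2. The inner window of a border is mark-poor, so there the difference starts from few called bins. In other pairs it may start from more, so fold changes in replicate 2 were not matched. Where the windows differed by 10 to 49 called bins, replicate 1 was higher outside at 115 of 166 borders (69.3%) and 215 of 443 other pairs (48.5%). Where they differed by 50 to 99, the numbers were 81 of 88 (92.0%) and 257 of 370 (69.5%). From 200 called bins on they were 43 of 43 and 182 of 185, with a median ratio of 1.59 and 1.36. The share rose with the difference in called bins at borders and at other pairs alike. The difference between borders and other pairs was not tested, since pairs share windows.

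The steepest borders in replicate 1 lay beside windows with few reads. On chromosome 6, density rose from 4.68 reads per bin in the window from 133000001 to 134000000 to 10.7 in the next, a ratio of 2.29, and from 1.35 to 14.4 in replicate 2. On chromosome 17 it rose 2.18 times, from 3.20 in the sparsest mark-poor window to 6.99 in the window before it, and on chromosome 7 it rose 2.15 times from 85000001 to 86000000 outward. At the other end, density outside was 0.623 times that inside on chromosome 1 at 47000001, 0.796 times on chromosome 7 at 41000000, and 0.799 times on chromosome 6 at 12000001. The outer windows of those 3 borders held 11, 7 and 13 called bins in replicate 2, against 430, 59 and 171 at the 3 steepest.

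The change did not sit at the window edge. From the edge of a run to the nearest called region of replicate 2 outside it, the median distance was 386 kb (10th percentile 73 kb, 90th 855 kb, 463 edges). At 75 edges (16.2%) a region lay within 100 kb. When only the 500 kb on each side of the edge were compared, replicate 1 was higher outside at 252 of 445 borders (56.6%), near the 55.7% of all tested pairs. The windows thus bound the mark-poor stretches coarsely.

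Aligned on the first called region of replicate 2 met when moving outward from the middle of the edge window, the border was sharp in replicate 2 and shallow in replicate 1. At 444 borders, the 10 kb just inside stood at a median of 1.32 times background in replicate 2 and the first 10 kb of the region at 3.03 times, a rise that the alignment fixes. In replicate 1, whose counts did not set the alignment, the same steps were 1.18 and 1.50 times. From 200 to 190 kb inside, the medians were 0.606 in replicate 2 and 0.896 in replicate 1. From 190 to 200 kb outside they were 1.18 and 1.13. The medians were close from 20 to 10 kb inside, at 1.03 in replicate 2 and 1.07 in replicate 1, and apart again from 10 to 20 kb outside, at 1.79 and 1.30. Over 200 kb on each side, replicate 1 had the higher plain density outside at 390 of 444 borders (87.8%), with a median ratio of 1.30. Replicate 2 had it at 415 (93.5%), with 2.32. No test enters these 2 counts, so they are not comparable with those at adjusted p below 0.01. Over whole windows the plain ratio of replicate 1 was above 1 at 388 of 445 borders. The alignment puts a called region on the outer side. No share is given here for other places aligned in this way, so the counts over 200 kb do not set borders apart from them.

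**Figure D5:**
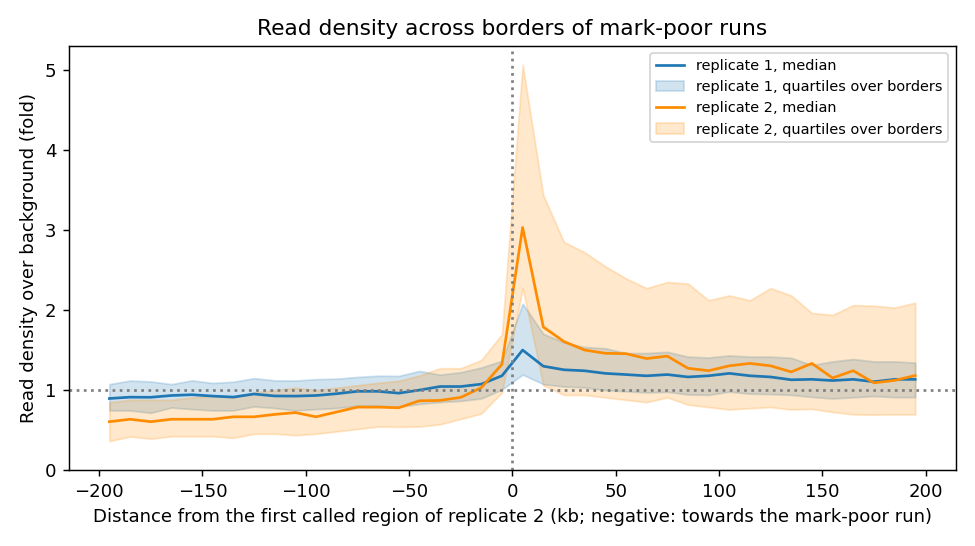
Read density in 10 kb steps, as fold over the background of the same library, against distance in kb from the first called region of replicate 2 met outward from the middle of the edge window of a mark-poor run (negative towards the run; the region lay outside the window at 420 borders and inside it at 24). Lines are medians over up to 444 borders and bands the quartiles, blue for replicate 1 and orange for replicate 2. Replicate 2 peaks at 3.03 and replicate 1 at 1.50 in the first 10 kb of the region.

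Most runs held no called region of either library. Regions of replicate 2 were absent from 201 of 233 runs and regions of replicate 1 from 219, and the runs held 37 and 18 regions in all. The rule limits the called bins of replicate 2 in each window, so its counts are a description. No share is given here for other stretches of like length, so the counts of replicate 1 do not set runs apart from them. The longest region-free stretch touching a run had a median of 2377 kb in replicate 2 and 3277 kb in replicate 1. Replicate 1 calls fewer regions genome-wide, so its longer stretches are no sign of less mark.

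Repeated starts and strand were checked as signs of library quality. Repeated starts made up a median of 13.9% of reads in mark-poor windows and 15.2% in the others in replicate 1, and 3.35% and 5.29% in replicate 2. Read density also differs between these windows, and its part in the repeats was not tested. The plus strand held 49.96% of the reads of the median mark-poor window in replicate 1 and 50.01% of the others. Distinct starts of reads with 2 placements stood at a median of 0.242 per bin in mark-poor windows and 0.264 in the others in replicate 1, and at 0.105 and 0.251 in replicate 2. Such reads were therefore lower in mark-poor windows mainly in replicate 2, as were reads with 1 placement.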

How the data were processed

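H3K79me2 was measured in 2 libraries of mouse embryonic fibroblasts. The authors deposited signed read positions, 1 per placement; per the file headers, Bowtie placed reads on mm8 with -e 70, -k 2, -m 2, -n 2 and -l 36. The Bowtie version was not stated in any source used. Reads with 1 and with 2 placements are in separate sections of the deposited lists, which give no count, normalization or region.

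Reads with 1 placement were reduced to distinct signed positions and counted in 1 kb bins. Autosomal depth was 16472599 and 12862946 distinct starts. Intervals cover counting error only. Adjacent windows were compared with an exact binomial test and Benjamini-Hochberg adjustment, tested on simulated data. Those data held counting error only around set ratios, so they cannot show the error rate on the real reads. Alternatives are given in the closing section. X, Y, the mitochondrial genome and, except where named, reads with 2 placements were left out.

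Regions named are the 10 longest runs (ties by lower density in replicate 1), 3 windows and 3 borders at each end of replicate 1, and the 3 called bins highest in replicate 1. Members, rules and tests were chosen with earlier results of these data known. Python 3.11.15, NumPy 2.4.6, SciPy 1.17.1, statsmodels 0.14.6 and matplotlib 3.10.9 were used.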

Additional observations from a re-analysis of the deposited data

Results flagged for a closer look

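Reads with 2 placements were not used to choose windows or to test borders. Some bins of mark-poor windows were rich in them, above the 3 reads that a count of 0 allows. The bin with most of them held 359 distinct starts in replicate 1 (chromosome 4, 79475001 to 79476000) and 63 in replicate 2 (chromosome 3, 92514001 to 92515000). No such maximum is given here for the other windows. At the median, mark-poor windows held fewer starts of such reads per bin, 0.242 against 0.264 in replicate 1 and 0.105 against 0.251 in replicate 2.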

How the results depend on the processing

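The number of mark-poor windows (476) was 236 with bins called at 8 reads, 188 when 900 bins had to hold reads, and 84 to 808 when either library was left out. The low end comes from asking 700 bins with reads of replicate 2 itself, which mark-poor windows often lack. Of the 69 windows in the 10 longest runs, 68 qualified from replicate 1 alone, 22 when 900 bins had to hold reads (none of the second, sixth and eighth longest runs), and 1 under that low end and with the roles of the libraries exchanged. The share in the lowest 25% of replicate 1 (68.7%) was 88.6% at 8 reads, 60.9% at 16 and 76.9% with under 0.2% of bins called. It was 64.1% with under 1%, 72.9% with 900 bins and 73.4% with repeated starts kept. With the roles of the libraries exchanged, replicate 1 chose the windows and replicate 2 was measured. The share was then 78.1% and the density ratio 0.478, both in replicate 2. In replicate 1 the density ratio (0.764) was in the same order 0.749, 0.777, 0.761, 0.770, 0.804 and 0.749. It was 0.759 with windows shifted by 500 kb, 0.766 with 5′ ends moved 60 bp, 0.776 from means and 0.722 per window. Among windows with 900 to 949 bins, a setting added after seeing the data, the share was 63.0% and the ratio 0.833. No ratio crossed 1 under these settings. Borders higher outside (360) numbered 191 at 8 reads and 135 with 900 bins, where fewer windows qualified. For the remaining changes the cause was not tested. Of 146 further values recomputed, 104 stayed within 1.5 times the value reported. Depth limits single bins: a bin at background held 3.3 reads in replicate 2. No paired analysis was possible because there is 1 group.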

Other observations

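Single windows that did not meet the rule stood between mark-poor ones. There were 39 eligible windows with a mark-poor window on both sides, and they held a median of 28 called bins in replicate 2, from 5 to 212. In 9 of them fewer than 10 bins were called, and in 10 of them 50 or more. Their median density was 7.55 reads per bin in replicate 1 and 3.22 in replicate 2. Of the 39, 10 fell in the lowest 25% of replicate 1, where 25.0% of all eligible windows lie by construction. Some were barely marked. The sparsest in replicate 2, on chromosome 9 from 18000001 to 19000000, had 5 called bins and 1.21 reads per bin, below the median of 1.38 over mark-poor windows. The most marked, both with 212 called bins, were on chromosome 6. From 17000001 to 18000000 the density was 10.9 reads per bin in replicate 1 and 8.49 in replicate 2, and from 108000001 to 109000000 it was 8.73 and 8.54. Replicate 1 called 53 and 34 bins there. These windows were chosen after their values were seen.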
